A study of Mus musculus with 28 samples.

Results

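The change in the cortex-to-medulla difference of host cells, labelled as dendritic cells, after kidney transplantation was measured in 14 of the 28 arrays. It was defined as the medulla minus cortex difference of host cells in the graft, less the same difference in homeostatic C57BL/6 kidneys, and is called the interaction here. The host side held 3 cortex and 3 medulla arrays, and the homeostatic side held 4 and 4. Arrays were placed in these groups by their labels alone, whereas the gene lists used below were chosen with earlier results of these data known. The other 14 arrays, of donor cells and homeostatic BALB/c cells, served for the shared estimate of the spread and for a comparison at the end.

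The cells are labelled as dendritic cells of mouse kidney, sorted after digestion of the tissue by CD45, CD11c and MHC class II on their surface. Host cells came from renal allografts taken 3 days after transplantation. They were sorted by CD45.1, a variant of CD45, and their strain is given as C57BL/6. The labels do not say whether these hosts were a congenic line. Donor cells in the same grafts were sorted by CD45.2, and their strain is given as BALB/c. The homeostatic cells came from healthy kidneys of untreated C57BL/6 mice and were sorted without a CD45 variant. Mouse numbers join cortex and medulla of each kidney, 4 mice on the homeostatic side and 3 grafts on the host side, and these are numbered 1 to 4 and 1 to 3 below, as are the 4 BALB/c mice. The labels give neither age nor sex. Host and homeostatic arrays differ in the operation, in the strain of the kidney that held the cells, in the sorting marker and possibly in the strain of the cells themselves, and these cannot be told apart.

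Renal dendritic cells lie between the tubules, where they take up antigen and present it to T cells on MHC class II. The cortex holds the glomeruli and most of the proximal tubule, while the medulla holds the loops of Henle and collecting ducts in a salty, poorly oxygenated interstitium. In an allograft, host leukocytes enter the kidney from the blood and meet donor tissue there.

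Levels are log2 array signal as deposited, so a step of 1 is a doubling. Differences are log2 differences ± standard error from limma, and a difference passed the test at an adjusted p under 0.05 over 14346 genes. An array level depends on its probes, so levels are compared between groups of arrays and not between genes.

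The arrays of the comparison resembled their own group, with a mean correlation of 0.896 to 0.924 among host arrays and 0.94 to 0.95 among C57BL/6 arrays. The BALB/c arrays, used for the shared spread and the donor comparison, were less alike, at 0.788 to 0.9. The sort markers were high in homeostatic cells. In every host array, Itgax and H2-Ab1 read below all homeostatic arrays. Ptprc did so in all host arrays but the cortex array of graft 1, which read 12.66 like the lowest homeostatic array. Ptprc, which encodes CD45, read 12.66 to 12.92 in the C57BL/6 cortex arrays and 12.75 to 12.84 in the medulla arrays. In host cells it read 12.66, 12.11 and 10.35 in the cortex of grafts 1 to 3, and 10.93, 9.11 and 8.97 in the medulla. Its interaction of -2.04 ± 0.57 did not pass (adjusted p = 0.11), but did without the host cortex array of graft 3 or the host medulla array of graft 1 (lowest adjusted p = 0.0021), and with the mouse number as a random block (adjusted p = 0.047). Itgax, which encodes CD11c, read 10.62, 9.14 and 7.70 in host cortex and 7.52, 7.29 and 8.16 in host medulla, against 10.89 to 11.62 in C57BL/6 cortex and 10.89 to 11.36 in C57BL/6 medulla. The median signal over all probesets was 7.69, 7.66 and 7.81 in these host medulla arrays, so Itgax lay near the middle of each array there. The Itgax interaction was -1.27 ± 0.79 (adjusted p = 0.79), and it was -0.54 without the host cortex array of graft 1 and -1.99 without that of graft 3. H2-Ab1, an MHC class II chain, read 12.57, 11.45 and 11.23 in host cortex and 10.92, 8.87 and 8.84 in host medulla, against 13.08 to 13.33 in all 8 homeostatic arrays. Its interaction of -2.24 ± 0.56 missed the threshold (adjusted p = 0.063) and passed with the mouse number as a fixed or random block (adjusted p = 0.018 and 0.029) and without the same 2 arrays (lowest adjusted p = 0.0012).

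Markers of leukocytes in general and of epithelium moved with the groups. The mean level of 21 leukocyte-wide genes was 11.15 to 11.28 in C57BL/6 cortex, 11.34 to 11.49 in C57BL/6 medulla, 9.25 to 11.12 in host cortex and 8.24 to 9.30 in host medulla. The mean level of 15 epithelium-wide genes was 8.02 to 8.22, 7.80 to 8.09, 8.71 to 9.15 and 9.71 to 10.18 in the same order. Host medulla arrays thus lay below all homeostatic arrays in the leukocyte list, where they overlapped host cortex, and above all other arrays of the comparison in the epithelial list. With the low Itgax given above, these markers do not bear out the label of dendritic cells for host medulla. In host minus C57BL/6 cells, 17 of the 21 leukocyte genes fell in the medulla and 1 in the cortex, while 12 of the 15 epithelial genes rose in the medulla and 4 in the cortex. The background shares of genes called lower and higher were 5.21% and 6.27% in the medulla and 2.13% and 2.01% in the cortex. In sorted bulk samples, fewer cells of a type and less RNA per cell cannot be told apart. The part of these lists in the results that follow was not tested.

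The interaction passed for 129 of 14346 genes, which is 0.899% of those tested, with 72 higher (0.502%) and 57 lower (0.397%). The median over all genes tested was 0.08. With the mouse number as a fixed block the count was 84, with 41 higher and 43 lower, and 47 of these genes were among the 129. That fit held only the 14 arrays of the comparison, which gave 132 genes without a block. Without the host cortex array of graft 2 the count was 85. The balance of the directions rested on single host arrays, since 52 genes were higher and 90 lower without the host cortex array of graft 1, 79 and 108 without that of graft 3, and 112 and 46 without the host medulla array of graft 3. Of the 129 genes, 64 kept their call with each of the 14 arrays left out in turn. The plot of the regional difference in host against homeostatic cells shows the called genes far from the diagonal, as their selection requires, and near the vertical axis. Whether they lie nearer to that axis than other genes was not tested.

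**Figure D1:**
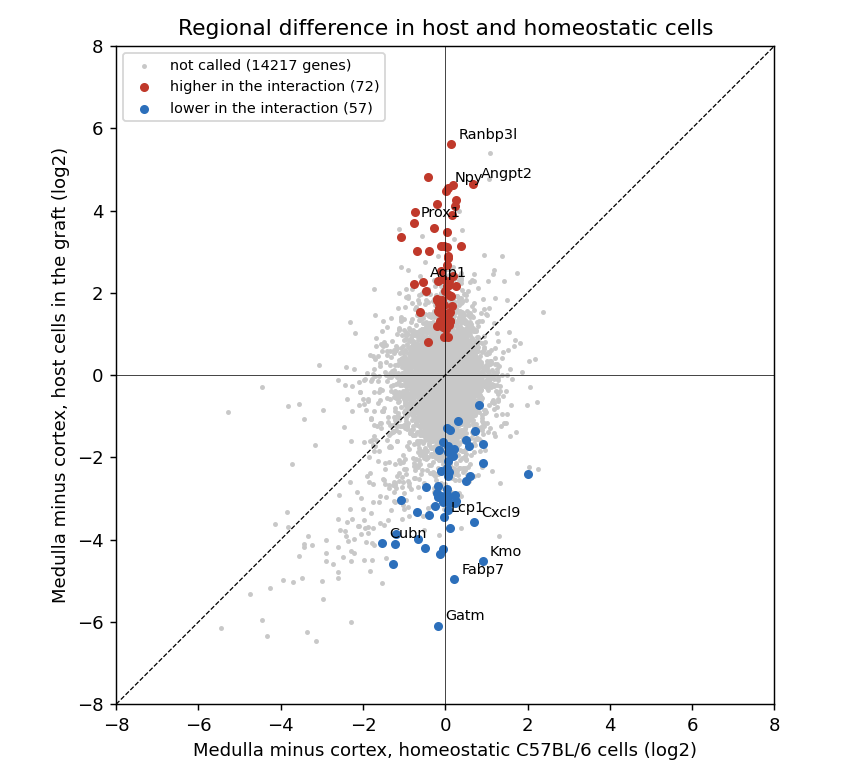
Each point is a gene, with its medulla minus cortex log2 difference in homeostatic C57BL/6 cells (x axis) and in host cells of the graft (y axis), and the dashed line marks equal differences. The 72 genes higher in the interaction (red) and the 57 lower (blue) spread along the y axis, while 105 of the 129 differ by less than 0.5 between the regions of the homeostatic kidney. The share of all genes tested under 0.5 is not given, and their median homeostatic difference is 0.023. The count is therefore not shown to set the called genes apart.

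The regional difference itself was wide in host cells and narrow in homeostatic cells. In host cells, 615 genes (4.29%) differed between medulla and cortex, 267 higher (1.86%) and 348 lower (2.43%) in the medulla. In C57BL/6 kidneys, 22 genes (0.153%) differed, 1 higher (0.00697%) and 21 lower (0.146%). The number of arrays is smaller on the host side, 3 against 4 in each region. With the mouse number as a fixed block these counts were 64 (14 higher and 50 lower) and 1. Those fits held only the groups compared, which gave 135 and 5 genes without a block. Without the host cortex array of graft 1, 155 genes were higher and 362 lower between the host regions. The homeostatic count ranged from 6 to 55 with each of its 8 arrays left out in turn, and moved by more than 1.5 times with every one of them, from 6 without the medulla array of mouse 4 to 55 without the cortex array of mouse 3.

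The interaction also equals host minus C57BL/6 in the medulla less host minus C57BL/6 in the cortex, and the called genes fell into 3 sets by which region held the larger change. Among the 72 higher genes the change was larger in the medulla for 71. Their median level was 7.40 in C57BL/6 cortex, 7.39 in C57BL/6 medulla, 7.50 in host cortex and 9.87 in host medulla. Among the 57 lower genes, 30 had the larger change in the medulla, with median levels of 11.32, 11.57, 10.99 and 8.19 in that order. The other 27 had the larger change in the cortex, with median levels of 7.03, 7.02, 9.74 and 6.98. By these medians, the higher genes were raised in host medulla, the larger lower set was reduced in host medulla, and the smaller lower set was raised in host cortex. These medians describe genes that were selected by the test and carry no test of their own.

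**Figure D2:**
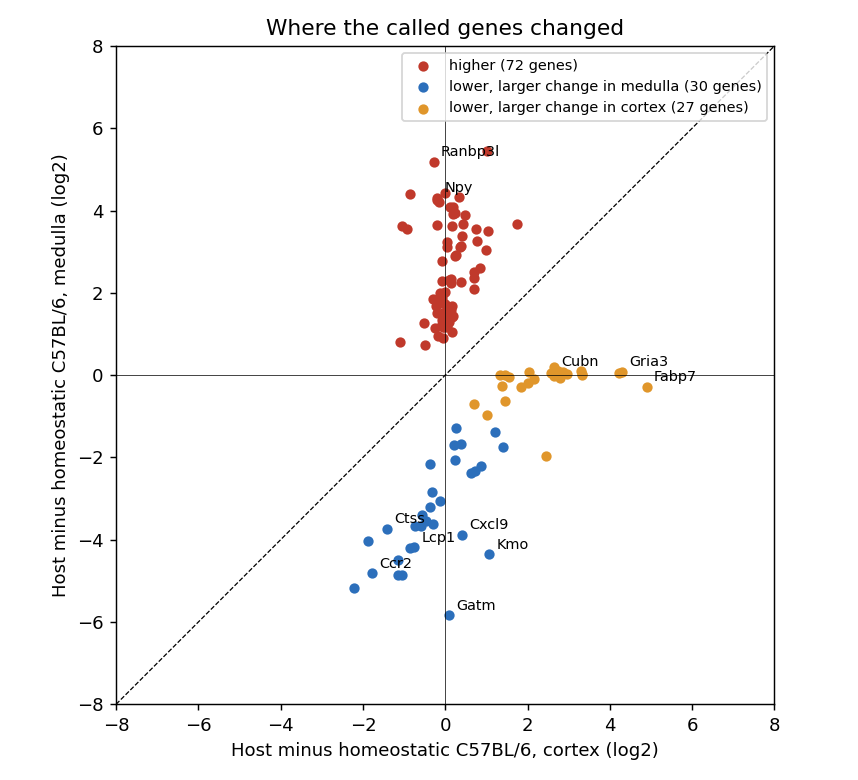
Each point is 1 of the 129 called genes, with its host minus homeostatic C57BL/6 log2 difference in the cortex (x axis) and in the medulla (y axis). The 72 higher genes (red) lie above the dashed line of equal change, 30 lower genes (blue) lie below 0 in the medulla, and 27 lower genes (orange) lie to the right, with a median of 2.64 in the cortex and 0.01 in the medulla.

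Host minus C57BL/6 passed for 594 genes in the cortex (4.14%, 288 higher and 306 lower, or 114 and 199 with these groups fitted alone) and for 1647 in the medulla (11.5%, 899 higher and 748 lower). The cortex count was 345 without the host cortex array of graft 2 and 356 without that of graft 3.

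The highest interactions belonged to genes that were low in homeostatic cells of both regions and in host cortex, and high in host medulla. Ranbp3l, which encodes a Ran-binding protein of the nuclear transport system, read 7.57, 6.66, 6.42 and 6.91 in C57BL/6 cortex and 7.30, 7.77, 6.59 and 6.45 in C57BL/6 medulla. It read 6.46, 6.85 and 6.53 in host cortex and 12.87, 11.54 and 12.25 in host medulla. The 3 host medulla arrays stood above all 11 others, with an interaction of 5.47 ± 0.78 (adjusted p = 0.00039). Npy, the precursor of the secreted neuropeptide Y, had the same shape. It read 7.92 to 8.30 in the 8 homeostatic arrays, 7.66, 7.92 and 8.08 in host cortex, and 12.32, 12.18 and 12.81 in host medulla. Its interaction was 4.50 ± 0.64 (adjusted p = 0.00039). Bst1, a surface enzyme that makes cyclic ADP-ribose, read 6.64 to 9.04 in the homeostatic arrays, 7.61, 6.77 and 6.53 in host cortex, and 11.77, 11.33 and 12.25 in host medulla, with an interaction of 5.24 ± 0.81 (adjusted p = 0.0009).

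Genes of epithelial structure and surface were among the highest. Scel encodes sciellin, a protein of the cornified envelope of stratified epithelia. It read 6.06 to 6.38 in the homeostatic arrays, 5.98, 6.18 and 6.18 in host cortex and 10.66, 10.65 and 10.91 in host medulla, an interaction of 4.43 ± 0.83 (adjusted p = 0.0085). Psca, a surface antigen anchored by a lipid, read 6.77, 6.70 and 7.09 in host cortex and 10.52, 11.30 and 11.22 in host medulla. Its interaction of 4.36 ± 0.92 (adjusted p = 0.018) missed the threshold without the host cortex array of graft 2 (adjusted p = 0.052). Scin, an actin-severing protein, read 7.13, 7.81 and 7.59 in host cortex and 11.46, 12.11 and 11.71 in host medulla, against 6.78 to 8.14 in the homeostatic arrays, an interaction of 3.98 ± 0.58 (adjusted p = 0.00048). In each of these genes the host medulla arrays lay above every other array of the comparison.

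Defb42, a beta-defensin, read 6.24, 6.21 and 6.16 in host cortex and 10.11, 9.37 and 12.54 in host medulla, so that its 3 high arrays differed widely among themselves. Its interaction was 4.44 ± 0.62 (adjusted p = 0.00037), and 0.063 with the mouse number as a fixed block. Angpt2, a secreted ligand of the endothelial receptor Tie2, read 6.54, 6.78 and 7.15 in host cortex and 11.97, 11.25 and 11.19 in host medulla. A homeostatic medulla array, that of mouse 2, read 9.12 while the other 7 homeostatic arrays read 6.59 to 6.93. The interaction was 3.97 ± 0.55 (adjusted p = 0.00036), and 0.081 with the fixed block. Mboat2, an acyltransferase of phospholipid remodelling, read 6.37, 6.15 and 6.32 in host cortex and 10.04, 9.02 and 10.50 in host medulla, an interaction of 3.84 ± 0.68 (adjusted p = 0.0051). The signal adaptor Rassf6 read 5.20, 5.79 and 5.73 in host cortex and 10.25, 8.86 and 9.29 in host medulla, an interaction of 3.72 ± 0.76 (adjusted p = 0.015).

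Transcription factors of kidney and epithelial development formed part of the higher set. Sim2 read 6.17 to 6.89 in the homeostatic arrays, 6.53, 6.71 and 6.59 in host cortex and 10.97, 10.42 and 10.77 in host medulla, an interaction of 3.87 ± 0.53 (adjusted p = 0.00028). Pax8, a factor of the nephric lineage, read 7.69 to 8.09 in the homeostatic arrays, 8.42, 9.09 and 9.48 in host cortex and 11.30, 10.48 and 10.79 in host medulla. Its interaction was 2.05 ± 0.41 (adjusted p = 0.014), and 0.099 with the fixed block. Host cortex was thus already above the homeostatic arrays for Pax8, and host medulla higher still. Pax2, its relative, read 7.64, 7.64 and 8.06 in host cortex and 10.98, 10.58 and 9.00 in host medulla, an interaction of 2.23 ± 0.47 (adjusted p = 0.02). It did not pass without the host cortex array of graft 2 or the host medulla array of graft 1 or graft 2 (adjusted p = 0.055 to 0.064), nor with the fixed block (adjusted p = 0.19).

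Prox1, a homeodomain factor, read 6.03, 5.89 and 5.84 in host cortex and 8.83, 10.00 and 10.06 in host medulla, an interaction of 4.48 ± 1.01 (adjusted p = 0.029). The C57BL/6 cortex array of mouse 1 read 9.36, against 5.82 to 6.31 in the other 3. The call was lost without the C57BL/6 medulla array of mouse 2, 3 or 4, the host cortex array of graft 2, or the host medulla array of graft 2 or 3 (adjusted p = 0.054 to 0.08), and with the fixed block (adjusted p = 0.096). The other members of the 15 highest were Ifit3b, Pik3r3 and the peroxidase gene Gpx8, at 4.69 ± 1.02 (adjusted p = 0.024), 4.42 ± 0.99 (adjusted p = 0.029) and 3.72 ± 0.74 (adjusted p = 0.012). With the fixed block their adjusted p was 0.12, 0.18 and 0.1. Ifit3b, close in sequence to other interferon-induced Ifit genes that its probes may also bind, kept its call with 7 of the 14 arrays left out in turn and lost it without the C57BL/6 cortex array of mouse 1 or 4, the C57BL/6 medulla array of mouse 3 or 4, the host cortex array of graft 2, or the host medulla array of graft 1 or 2 (adjusted p = 0.05 to 0.076). Pik3r3, a regulatory subunit of phosphoinositide 3-kinase, kept its call in 6 of 14, those without the C57BL/6 cortex array of mouse 2, 3 or 4, the host cortex array of graft 2 or 3, or the host medulla array of graft 3 (adjusted p = 0.05 to 0.08 in the other cases).

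Of the water and urea channels, Aqp4, Slc14a2 and Aqp1 were called higher. Aqp4, a water channel of collecting duct principal cells, read 6.73 to 6.98 in the homeostatic arrays, 6.54, 6.67 and 6.83 in host cortex and 9.13, 8.62 and 8.75 in host medulla. Its interaction of 2.12 ± 0.24 had the smallest adjusted p of the higher genes named here (3.4e-05), and it was the only gene called of the 14 collecting duct markers tested. Slc14a2, a urea transporter of the collecting duct, read 7.40, 7.41 and 7.47 in host cortex and 9.06, 8.44 and 9.29 in host medulla, an interaction of 1.41 ± 0.28 (adjusted p = 0.012), and 0.063 with the fixed block. Aqp1, a water channel of the proximal tubule and thin descending limb, read 8.87, 9.92 and 9.75 in host cortex and 11.53, 11.94 and 11.86 in host medulla, against 7.74 to 9.05 in the homeostatic arrays. Its interaction was 2.81 ± 0.67 (adjusted p = 0.043). The Aqp1 call was kept only without the C57BL/6 medulla array of mouse 2 or the host cortex array of graft 3, and was lost in the other 12 cases (adjusted p = 0.053 to 0.12).

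Aqp1 and Slc14a2 were the 2 genes called of 10 tested members of a list of osmotic stress genes and targets of NFAT5, the transcription factor of the response to hypertonicity. The list had a median interaction of 0.95, and 9 of its 10 tested members were above 0. Slc5a3, the myo-inositol importer, read 12.71, 12.72 and 12.75 in host medulla and 9.29, 9.16 and 11.13 in host cortex. The homeostatic arrays ran from 6.96 to 9.92, and the interaction of 2.75 ± 1.35 did not pass (adjusted p = 0.62). Slc6a12, the betaine transporter, read 7.77, 7.85 and 7.90 in host cortex and 10.59, 9.74 and 9.54 in host medulla. It also read higher in the medulla than in the cortex of all 4 homeostatic mice, and its interaction of 1.33 ± 0.49 did not pass (adjusted p = 0.35).

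Pfkl, the liver form of the glycolytic enzyme phosphofructokinase, read 7.49, 7.02 and 7.73 in host cortex and 9.34, 9.53 and 9.23 in host medulla, against 7.26 to 7.99 in the homeostatic arrays. Its interaction was 1.86 ± 0.28 (adjusted p = 0.00068), and 0.099 with the fixed block. It was the only gene called of 16 hypoxia and glycolysis genes tested, whose median interaction of -0.02 was near that of all genes.

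The lowest interaction was that of Gatm, the enzyme of the first step of creatine synthesis and a marker in the proximal tubule list. Gatm was high everywhere except host medulla. It read 12.05, 11.96, 12.13 and 12.16 in C57BL/6 cortex, 11.99, 11.97, 11.74 and 11.89 in C57BL/6 medulla, and 12.07, 11.91 and 12.47 in host cortex. In host medulla it read 6.35, 5.97 and 5.87. The interaction was -5.91 ± 0.44 (adjusted p = 2.6e-08).

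The set reduced in host medulla held leukocyte genes. Lcp1, the actin-bundling protein L-plastin of blood cells, read 13.11 to 13.22 in the 8 homeostatic arrays, 12.79, 12.46 and 12.00 in host cortex and 9.45, 8.63 and 8.81 in host medulla. The interaction was -3.42 ± 0.35 (adjusted p = 6.4e-06). Cd52, a lymphocyte and myeloid surface glycoprotein, read 12.47 to 12.75 in the homeostatic arrays, 12.31, 11.44 and 10.68 in host cortex and 8.80, 7.60 and 6.88 in host medulla, an interaction of -3.83 ± 0.64 (adjusted p = 0.0025). Laptm5, a lysosomal membrane protein of leukocytes, read 12.67, 12.49 and 11.27 in host cortex and 10.30, 7.79 and 8.50 in host medulla, an interaction of -3.34 ± 0.70 (adjusted p = 0.018). The Laptm5 call was lost without the host cortex array of graft 2 or the host medulla array of graft 2 (adjusted p = 0.059 to 0.063) and with the fixed block (adjusted p = 0.063). Lcp1, Cd52 and Laptm5 were the 3 genes called of the 21 leukocyte-wide genes, of which 20 were below 0, with a median of -1.49.

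Genes of dendritic cells and antigen presentation were also in this set. Kmo, an enzyme of tryptophan breakdown that marks dendritic cells, read 10.94, 10.73, 9.60 and 10.20 in C57BL/6 cortex and 11.43, 11.36, 10.65 and 11.64 in C57BL/6 medulla. It read 12.00, 11.73 and 10.58 in host cortex and 7.79, 6.47 and 6.48 in host medulla. The regional difference was 0.91 ± 0.48 in homeostatic cells, which did not pass (adjusted p = 1), and -4.52 ± 0.55 in host cells (adjusted p = 1.6e-05), with an interaction of -5.43 ± 0.73 (adjusted p = 0.00026). Ctss, a protease that degrades the invariant chain of MHC class II, read 12.61, 12.11 and 10.71 in host cortex and 10.49, 9.01 and 9.13 in host medulla, against 13.09 to 13.39 in the homeostatic arrays. Its interaction was -2.31 ± 0.49 (adjusted p = 0.018). Cd74, the invariant chain itself, read 11.64, 10.94 and 10.20 in host cortex and 8.83, 8.20 and 9.46 in host medulla, against 12.70 to 12.89 in the homeostatic arrays, an interaction of -2.16 ± 0.47 (adjusted p = 0.024). Both calls were lost without the host cortex array of graft 1 or 2 or the host medulla array of graft 2 (adjusted p = 0.052 to 0.063 for Ctss and 0.059 to 0.082 for Cd74). With the fixed block the adjusted p was 0.053 for Ctss and 0.16 for Cd74.

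The promoters of Kmo and Ctss are shown because both carry the letters GAGGAAGT, a form of the binding site of PU.1, a transcription factor of myeloid and dendritic cells. The sequences are those of RefSeq for GRCm38.p6, from 250 bases before to 50 after the annotated start, and the capitals mark the match. Kmo lies at chr1:175631943-175632242 on the plus strand, with the match starting at -103 from the start site. Ctss lies at chr3:95526536-95526835 on the plus strand, with the match on the reverse strand at -2.
Kmo: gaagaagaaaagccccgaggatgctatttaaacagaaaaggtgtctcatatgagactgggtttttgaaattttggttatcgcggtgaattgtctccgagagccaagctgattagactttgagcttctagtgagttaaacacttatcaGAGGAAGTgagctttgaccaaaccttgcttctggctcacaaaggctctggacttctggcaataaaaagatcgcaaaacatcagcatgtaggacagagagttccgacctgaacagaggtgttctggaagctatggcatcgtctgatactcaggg
Ctss: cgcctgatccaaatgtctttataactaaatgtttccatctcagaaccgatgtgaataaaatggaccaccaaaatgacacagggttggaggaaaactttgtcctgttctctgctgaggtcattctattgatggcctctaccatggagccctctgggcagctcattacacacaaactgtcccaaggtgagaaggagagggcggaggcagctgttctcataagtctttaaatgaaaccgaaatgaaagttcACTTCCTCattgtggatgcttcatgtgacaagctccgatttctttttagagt
The match was found on either strand in 4 of the 24 genes with a promoter in the table among the 30 lower genes with the larger change in the medulla, which are Kmo, Ctss, Phf11a and Cbfb (the last named after its values were seen). It was found in none of the 59 promoters of higher genes and none of the 20 of the other lower genes, against 2.98% of the 11393 promoters of genes tested. A match describes the letters and no test was made.

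Cxcl9, a chemokine that is induced by interferon-gamma and attracts activated T cells, read 10.85, 10.08, 9.89 and 9.86 in C57BL/6 cortex and 10.91, 10.90, 10.84 and 10.86 in C57BL/6 medulla. It read 11.47, 10.42 and 9.82 in host cortex and 6.92, 7.16 and 6.92 in host medulla, an interaction of -4.28 ± 0.76 (adjusted p = 0.0046). The level in host cortex overlapped that of the homeostatic arrays, and the level in host medulla was far below both. Cxcl9 was the only gene called of 17 tested in the interferon-gamma list, although all 17 were below 0, with a median of -1.74. Irf1, a transcription factor of the same response, read 11.13, 10.21 and 9.38 in host cortex and 8.39, 8.07 and 7.79 in host medulla. Its interaction of -2.77 ± 0.70 missed the threshold (adjusted p = 0.063) and passed with the fixed and the random block (adjusted p = 0.037 and 0.025) and without the host cortex array of graft 3 (adjusted p = 0.023). Tap1, the peptide transporter of MHC class I loading, read 10.08, 9.35 and 8.35 in host cortex and 7.34, 7.57 and 7.48 in host medulla, with an interaction of -2.03 ± 0.51 (adjusted p = 0.065, but 0.029 with the random block and 0.0085 without the host cortex array of graft 3). Cxcl10, a chemokine of the same receptor as Cxcl9, was at -2.87 ± 0.85 (adjusted p = 0.15).

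The interferon-gamma list as a whole had a mean level of 9.21 to 9.56 in C57BL/6 cortex, 9.33 to 9.55 in C57BL/6 medulla, 9.44 to 10.41 in host cortex and 8.05 to 8.80 in host medulla. None of 20 type I interferon genes was called, their median interaction was 0.01, and 10 lay on either side of 0. The difference between these lists was not tested. Ifit3b and Bst2, which are in neither list, were called at 4.69 and -1.99. The 10 MHC class II genes tested were all below 0 with a median of -1.47, and 2 were called, Ctss and Cd74. None of the 11 MHC class I genes was called, with a median of -0.45 and all 11 below 0. These lists overlap, since the interferon-gamma list shares Tap1, Psmb9 and Nlrc5 with the class I list and Ciita with the class II list.

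Ccr2, Ctsz, Phf11a and Cd36 were further members of the set. Ccr2, the chemokine receptor of inflammatory monocytes, read 12.31 to 12.78 in the homeostatic arrays, 11.91, 10.03 and 10.21 in host cortex and 8.55, 7.74 and 6.58 in host medulla. Its interaction of -3.04 ± 0.67 (adjusted p = 0.025) did not pass without the C57BL/6 medulla array of mouse 2 or 4, the host cortex array of graft 1 or the host medulla array of graft 3 (adjusted p = 0.05 to 0.074). Ctsz, a lysosomal protease, was at -1.79 ± 0.38 (adjusted p = 0.02) and did not pass without the host cortex array of graft 2 or the host medulla array of graft 3 (adjusted p = 0.056 to 0.059). Phf11a, which encodes a PHD finger protein, was at -3.35 ± 0.76 (adjusted p = 0.03), passed with only 2 of the 14 arrays left out, the host cortex array of graft 3 and the host medulla array of graft 2 (adjusted p = 0.05 to 0.092 in the other cases), and had an adjusted p of 0.053 with the fixed block. Cd36, a scavenger receptor for lipids, read 10.41, 11.21 and 12.01 in host cortex and 7.96, 6.83 and 6.24 in host medulla, against 11.21 to 12.51 in the homeostatic arrays. Its interaction of -3.72 ± 0.59 (adjusted p = 0.0014) passed with each of the 14 arrays left out in turn, but not with the fixed block (adjusted p = 0.11).

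By its median levels, the third set was low in homeostatic cells and in host medulla, and raised in host cortex. Not every member had this shape. In host minus C57BL/6 cells, Bst2 was at 1.02 in the cortex and -0.98 in the medulla, and Klra17 at 2.45 and -1.97. Fabp7, a brain-type fatty acid binding protein, read 6.73, 6.95, 7.04 and 6.98 in C57BL/6 cortex and 7.20, 6.98, 7.10 and 7.28 in C57BL/6 medulla. It read 11.79, 11.93 and 11.75 in host cortex and 6.67, 7.06 and 6.86 in host medulla. The 3 host cortex arrays stood alone, with an interaction of -5.18 ± 0.34 (adjusted p = 4.6e-09), the smallest adjusted p of the comparison among the genes named here. Gria3, a subunit of AMPA-type glutamate receptors, read 5.87 to 6.26 in the homeostatic arrays, 11.05, 10.25 and 9.87 in host cortex and 5.96, 6.02 and 6.14 in host medulla, an interaction of -4.22 ± 0.62 (adjusted p = 0.00051). Hspb8, a small heat shock protein, read 6.83 to 7.16 in the homeostatic arrays, 10.15, 9.03 and 9.46 in host cortex and 7.06, 7.13 and 7.38 in host medulla. Its interaction was -2.45 ± 0.29 (adjusted p = 3.8e-05).

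Fatty acid hydroxylases and proximal tubule genes were in the same set. Cyp4a14, an omega-hydroxylase of fatty acids, read 6.66 to 6.99 in the homeostatic arrays, 9.74, 11.58 and 12.02 in host cortex and 7.10, 6.69 and 6.84 in host medulla, an interaction of -4.17 ± 0.61 (adjusted p = 0.00051). Its close relative Cyp4a31, whose probes may bind RNA of the same family, read 7.26, 10.76 and 10.38 in host cortex and 4.54, 4.97 and 5.11 in host medulla. The Cyp4a31 interaction of -3.33 ± 0.76 (adjusted p = 0.032) passed only without the C57BL/6 cortex array of mouse 1, the host cortex array of graft 1 or the host medulla array of graft 3 (adjusted p = 0.055 to 0.13 in the other cases), and was at an adjusted p of 0.19 with the fixed block. Adtrp, a hydrolase of fatty acid esters of hydroxy fatty acids, read 9.83, 9.22 and 11.79 in host cortex and 6.27, 6.11 and 6.51 in host medulla, an interaction of -3.31 ± 0.64 (adjusted p = 0.011), and 0.12 with the fixed block.

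Cubn encodes cubilin, the endocytic receptor of the proximal tubule brush border. It read 9.40, 7.97, 6.74 and 7.77 in C57BL/6 cortex and 6.46, 6.23, 6.79 and 6.25 in C57BL/6 medulla. It read 9.97, 10.91 and 10.98 in host cortex and 6.42, 6.52 and 6.65 in host medulla. The cortex was higher in both kinds of cells, in 3 of 4 homeostatic mice and in all 3 grafts, and the gap was wider in host cells, with an interaction of -2.54 ± 0.51 (adjusted p = 0.014, and 0.21 with the fixed block). In the proximal tubule list, 1 of 19 genes tested was higher (Aqp1) and 2 were lower (Gatm and Cubn), with a median of -1.37 and 17 of 19 below 0. The mean level of the list was 9.42 to 11.05 in C57BL/6 cortex, 7.59 to 8.69 in C57BL/6 medulla, 10.47 to 11.86 in host cortex and 7.37 to 7.86 in host medulla. In medulla minus cortex, 17 of the 19 genes were called lower and 1 higher (Aqp1) in host cells, and 5 were called lower and none higher in C57BL/6 cells. The shares over all genes tested were 2.43% lower and 1.86% higher in host cells, and 0.146% and 0.00697% in C57BL/6 cells. Slc5a12, a lactate transporter of this segment, was at -3.53 ± 0.95 (adjusted p = 0.097) and passed with the random block (adjusted p = 0.047) and without the cortex array of C57BL/6 mouse 1 or of graft 1 (lowest adjusted p = 0.00047).

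The promoters of Cubn and Ranbp3l, a lower and a higher gene, are shown with the letters TGGAAA, the core of the site shared by NFAT5 and other NFAT factors. They are from the same RefSeq table and window. Cubn lies at chr2:13491827-13492126 on the minus strand, with matches at -71 and -62, the former overlapping a match of TTCNNNGAA, the form of the STAT site called GAS. Ranbp3l lies at chr15:8967699-8967998 on the plus strand, with a match on the reverse strand at -248 that overlaps a match of the interferon-stimulated response element.
Cubn: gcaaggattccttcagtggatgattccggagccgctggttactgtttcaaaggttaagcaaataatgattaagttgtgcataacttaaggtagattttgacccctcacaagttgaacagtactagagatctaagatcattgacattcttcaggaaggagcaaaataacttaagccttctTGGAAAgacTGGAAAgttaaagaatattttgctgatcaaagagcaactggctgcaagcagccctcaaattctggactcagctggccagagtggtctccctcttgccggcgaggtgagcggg
Ranbp3l: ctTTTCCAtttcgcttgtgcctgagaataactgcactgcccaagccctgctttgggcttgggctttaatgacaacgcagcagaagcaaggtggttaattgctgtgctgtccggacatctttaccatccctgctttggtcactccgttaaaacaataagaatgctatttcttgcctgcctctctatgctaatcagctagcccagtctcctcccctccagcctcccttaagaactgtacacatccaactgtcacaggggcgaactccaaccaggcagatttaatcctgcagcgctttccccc
On either strand TGGAAA was found in 9 of 20 promoters of the lower genes with the larger change in the cortex (45%), in 4 of 24 of the other lower genes (16.7%) and in 8 of 59 of the higher genes (13.6%), against 17% of genes tested. TTCNNNGAA was found in 3 of 20, 3 of 24 and 2 of 59, against 7.14%. The interferon-stimulated response element was found in 2 of 20, 2 of 24 and 2 of 59, against 3.09%. These are shares of letters in a window and were not tested.

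Gzmb, the cytotoxic protease granzyme B, read 6.67 to 7.52 in the homeostatic arrays, 11.49, 11.25 and 7.96 in host cortex and 6.80, 7.36 and 7.21 in host medulla. The host cortex array of graft 3 was far below the other 2, and the interaction of -3.20 ± 0.71 (adjusted p = 0.028) passed in 5 of 14 cases with an array left out, those without the C57BL/6 cortex array of mouse 2, the C57BL/6 medulla array of mouse 4, the host cortex array of graft 3 or the host medulla array of graft 2 or 3 (adjusted p = 0.05 to 0.11 in the other cases). With the fixed block its adjusted p was 0.25. Gzmb was the only gene called of 8 tested natural killer and cytotoxic genes, all 8 of which were below 0 with a median of -2.24. Ncr1, a receptor of natural killer cells, read 8.56, 8.81 and 8.72 in host cortex and 6.15, 5.95 and 6.65 in host medulla, against 5.98 to 7.32 in the homeostatic arrays, and its interaction of -2.46 ± 0.62 missed the threshold (adjusted p = 0.063, but 0.03 with the random block and 0.038 without the C57BL/6 cortex array of mouse 3). The mean level of the list was 8.90 to 10.55 in host cortex, 7.35 to 8.76 in host medulla and 7.88 to 8.88 in the homeostatic arrays. Klra17, a lectin-like receptor of the Ly49 family with close relatives, read 9.65, 8.42 and 5.42 in host cortex and 5.98, 5.16 and 5.10 in host medulla, so that the regions overlapped. In all 4 homeostatic mice it read higher in the medulla (5.89 to 8.65) than in the cortex (5.25 to 5.61). Its interaction of -4.42 ± 0.90 (adjusted p = 0.015) was at an adjusted p of 0.054 without the host cortex array of graft 2 and of 0.13 with the fixed block.

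Cfb, complement factor B of the alternative pathway, read 10.64, 10.19, 8.85 and 9.20 in C57BL/6 cortex and 7.99, 8.58, 9.15 and 8.35 in C57BL/6 medulla. It read 11.76, 12.79 and 12.52 in host cortex and 8.40, 8.14 and 8.92 in host medulla, an interaction of -2.67 ± 0.59 (adjusted p = 0.028). The call was lost without the C57BL/6 cortex array of mouse 3 or 4, the C57BL/6 medulla array of mouse 2 or 3, the host cortex array of graft 2, or the host medulla array of graft 1 or 2 (adjusted p = 0.051 to 0.093), and with the fixed block (adjusted p = 0.22). It was the only gene called of 12 complement genes tested. The plot of the difference within each mouse shows the spread behind these values.

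**Figure D3:**
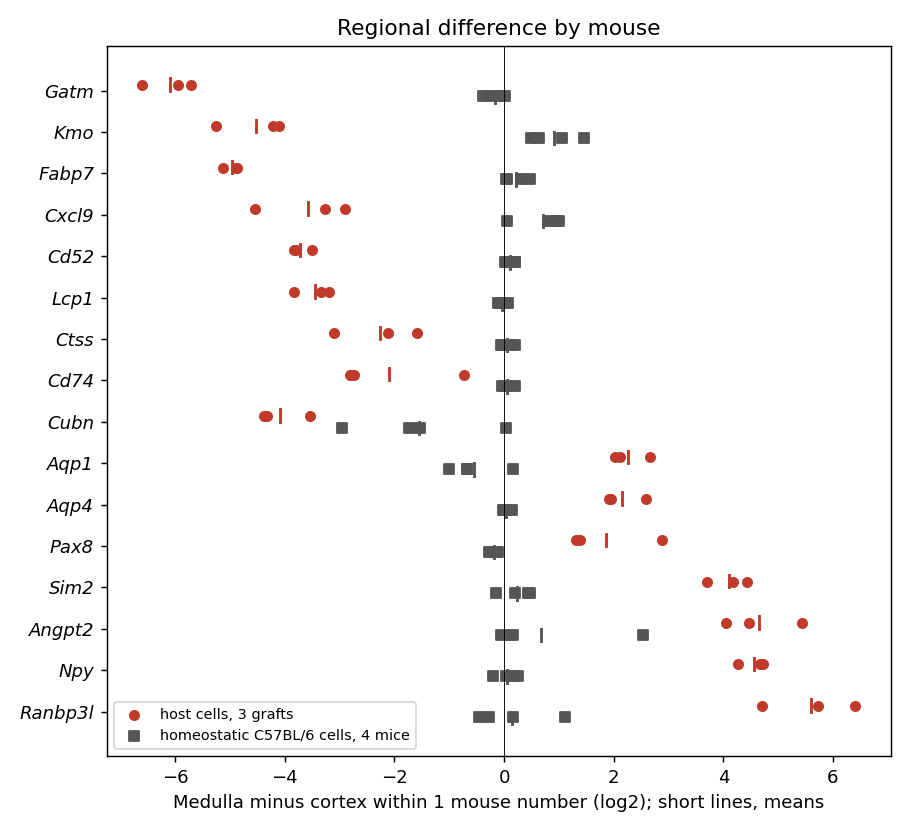
Medulla minus cortex log2 difference within each mouse number for 16 genes, in host cells of 3 grafts (red circles) and homeostatic C57BL/6 cells of 4 mice (grey squares), with short lines at the means. For every gene drawn the 3 grafts lie apart from the 4 homeostatic mice, below them for Gatm through Cubn and above them for Aqp1 through Ranbp3l, and the genes were chosen among those called. Over all genes tested, host differences lay wholly above the homeostatic ones for 7.57% and wholly below for 4.45%.

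The lists of cell types gave few calls. Of 8 pan dendritic cell genes 1 was called, Kmo, with a median of -1.54 and 7 below 0. None of 9 type 1 and none of 7 type 2 dendritic cell genes was called, with medians of -0.62 and -1.50. Clec10a, a lectin of type 2 dendritic cells, was at -2.59 ± 0.69 (adjusted p = 0.085), and passed with the random block and without the host cortex array of graft 3 (adjusted p = 0.05 and 0.043). Of 8 plasmacytoid dendritic cell genes 1 was called, Bst2, a membrane protein that is also induced by interferon. Bst2 read 11.28, 11.29 and 9.51 in host cortex and 9.12, 8.88 and 8.70 in host medulla, an interaction of -1.99 ± 0.47 (adjusted p = 0.039). The Bst2 call was kept only without the C57BL/6 cortex array of mouse 4, the host cortex array of graft 3 or the host medulla array of graft 1 (adjusted p = 0.051 to 0.15 in the other cases), and not with the fixed block (adjusted p = 0.12). Siglech, a lectin of plasmacytoid dendritic cells, read 12.78, 11.01 and 8.19 in host cortex and 8.44, 8.38 and 7.88 in host medulla, and its interaction of -2.95 ± 0.84 did not pass (adjusted p = 0.12) except without the host cortex array of graft 3 (adjusted p = 8.1e-05), and was -1.90 without that of graft 1.

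Resident macrophage genes were compared as a further list of cell markers. The mean level of this list was 11.03 to 11.20 in C57BL/6 cortex and 11.04 to 11.15 in C57BL/6 medulla. In host cells it was 8.31 to 8.88 in the cortex and 8.64 to 8.86 in the medulla. Homeostatic cells thus carried these markers above host cells in both regions. C1qc, a chain of complement C1q made by tissue macrophages, read 12.63 to 13.00 in the homeostatic arrays, 7.27, 7.39 and 7.55 in host cortex and 8.79, 8.57 and 8.03 in host medulla. Its interaction of 1.08 ± 0.35 did not pass (adjusted p = 0.23). Csf1r, the receptor of macrophage colony-stimulating factor, was at 0.85 ± 0.36 (adjusted p = 0.47), and at 0.56 without the host cortex array of graft 3. Of 12 resident macrophage genes none was called in the interaction, whose median was 0.08. In host minus C57BL/6 cells 9 of them fell in the cortex and 8 in the medulla, against 2.13% and 5.21% of all genes tested. None of 13 T cell genes and none of 8 B cell genes was called, with medians of -0.11 and 0.37.

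Markers of the distal nephron pointed both ways. The 13 loop of Henle and distal tubule genes had a median of 1.93 with 7 above and 6 below 0, and none was called. Slc12a1, the salt transporter of the thick ascending limb, read 8.62, 8.85 and 11.70 in host cortex and 12.97, 13.11 and 13.26 in host medulla, but 6.26 to 11.88 in the homeostatic medulla arrays, and its interaction was 3.95 ± 1.69 (adjusted p = 0.48). Slc12a3, the salt transporter of the distal convoluted tubule, read 11.06, 10.95 and 11.34 in host cortex and 7.52, 7.26 and 7.82 in host medulla. It was lower in the medulla of homeostatic mice too, and its interaction of -1.99 ± 0.88 (adjusted p = 0.51) passed with the fixed block (adjusted p = 0.031). The epithelium-wide list had 3 of 15 genes called, Pax2, Pax8 and Spint2, all higher, with a median of 1.33 and 13 above 0. Spint2, a protease inhibitor, was at 1.38 ± 0.32 (adjusted p = 0.036). Its call was kept only without the C57BL/6 cortex or medulla array of mouse 2 or the host medulla array of graft 1 (adjusted p = 0.05 to 0.11 in the other cases), and its adjusted p was 0.21 with the fixed block.

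None of the 7 tubular injury genes tested passed. Havcr1, the tubular injury marker KIM-1, read 6.06 to 6.55 in the homeostatic arrays, 10.72, 10.63 and 7.29 in host cortex and 7.34, 6.59 and 6.48 in host medulla, an interaction of -2.66 ± 0.71 (adjusted p = 0.086, but 0.047 with the random block and 9.8e-07 without the host cortex array of graft 3). Lcn2, which encodes NGAL, read 8.85, 10.36 and 9.61 in host cortex and 11.07, 10.37 and 10.73 in host medulla, against 6.86 to 7.21 in the homeostatic arrays, and its interaction was 1.03 ± 0.46 (adjusted p = 0.52), or 0.65 without the host cortex array of graft 1. Both genes stood above the homeostatic arrays in host cortex, and Lcn2 in host medulla as well. None of the 14 endothelial and none of the 10 fibroblast and pericyte genes was called, with medians of 0.22 and -0.02. Of the 41 lists with a gene tested, 16 held at least 1 called gene and 5 held more than 1.

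**Figure D4:**
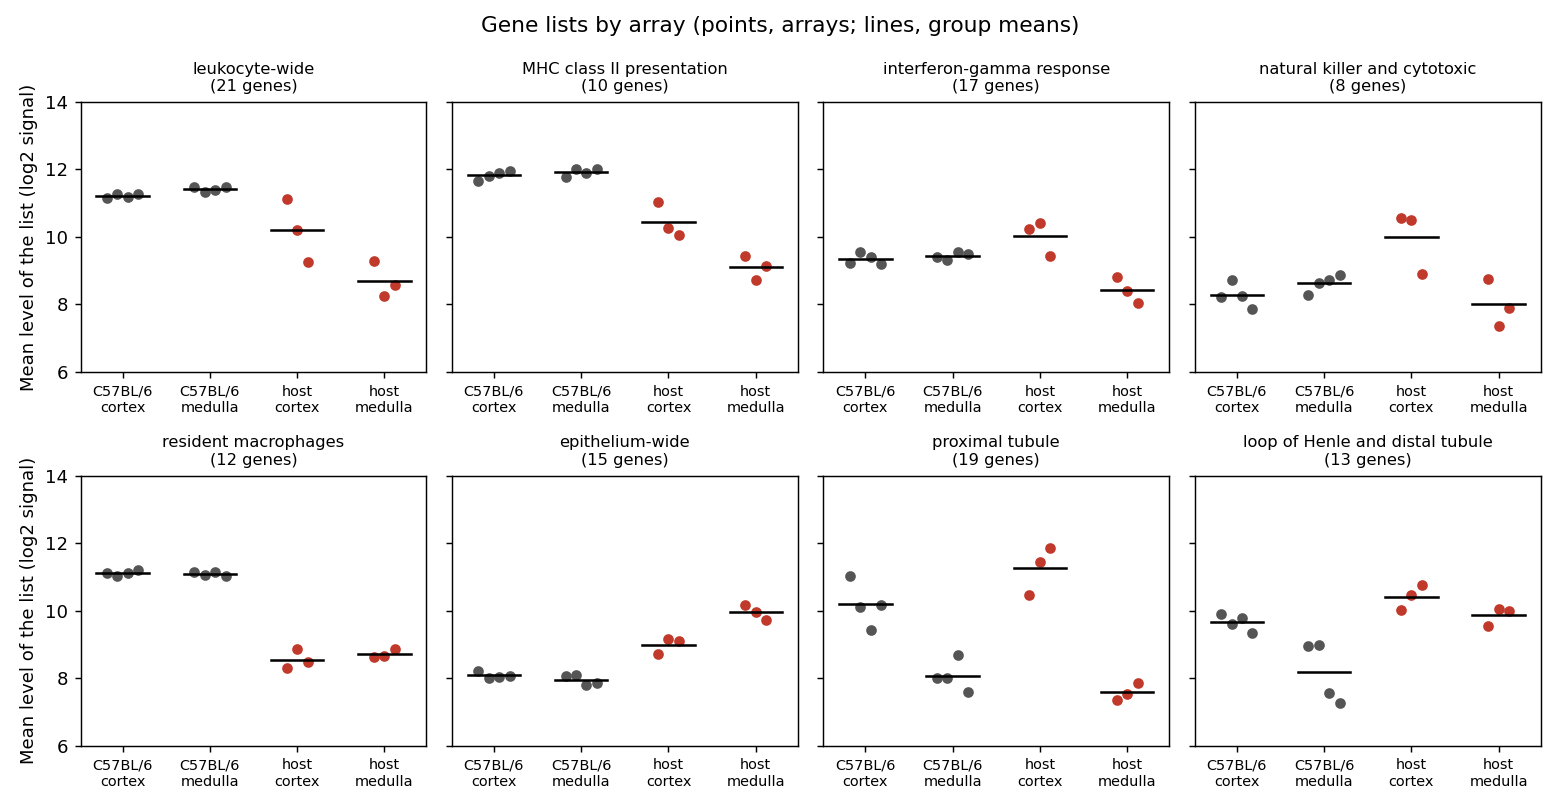
Mean log2 level of 8 gene lists in each array, for homeostatic C57BL/6 cells (grey) and host cells of the graft (red) from cortex and medulla, with lines at the group means. Host medulla arrays lie at 8.24 to 9.30 in the leukocyte-wide list, below every homeostatic array, and at 9.71 to 10.18 in the epithelium-wide list, above every other array drawn.

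Donor cells were compared to ask whether the change was particular to host cells. The donor interaction, donor medulla minus cortex less the same in BALB/c kidneys, passed for 65 genes (0.453%), 8 higher and 57 lower. It shares no array with the host interaction, but donor and host cells came from the same 3 grafts. There were 20 genes called in both and in the same direction, which is 20 of the 129 and 20 of the 65. Called or not, the donor interaction had the same direction for 111 of the 129 genes, 61 higher and 50 lower. That share over all genes tested is not given here. Mean levels in donor medulla were 9.64 to 9.89 for the epithelium-wide list and 9.29 to 10.56 for the leukocyte-wide list. In host medulla they were 9.71 to 10.18 and 8.24 to 9.30. Fabp7 was at -4.29 ± 0.34 in donor cells (adjusted p = 2e-07), Cyp4a14 at -4.67 ± 0.61 (adjusted p = 0.00021), Cubn at -4.61 ± 0.51 (adjusted p = 3e-05) and Angpt2 at 3.87 ± 0.55 (adjusted p = 0.00062).

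The difference between the host and the donor interaction passed for 3 genes (0.0209%), all lower in host cells and none higher, while 789 genes had an unadjusted p under 0.05 in limma. The direction was not stable, with 11 higher and 4 lower without the host medulla array of graft 3, 4 and 6 without the donor medulla array of graft 2, and 1 and 2 with the mouse number as a fixed block, where 1 gene was shared with the 3. Gatm read 12.39, 12.13 and 12.50 in donor cortex and 11.18, 9.63 and 11.85 in donor medulla, a donor interaction of -1.21 ± 0.44. The host minus the donor interaction was -4.71 ± 0.62 (adjusted p = 0.002), and the call was kept with each of 28 arrays left out in turn and with the fixed block (adjusted p = 0.018). Lcp1 read 12.92, 12.73 and 12.71 in donor cortex and 12.47, 11.39 and 12.91 in donor medulla. Its host minus donor value was -2.95 ± 0.49 (adjusted p = 0.031), and the call was lost with 17 of the 28 arrays left out in turn (highest adjusted p = 0.1) and with the fixed block (adjusted p = 0.092). Hspb8 read 7.40, 7.76 and 7.51 in donor cortex and 7.66, 6.94 and 7.07 in donor medulla, so that the level seen in host cortex was not seen in donor cells. Its host minus donor value was -2.30 ± 0.40 (adjusted p = 0.046), and the call was lost with 22 of the 28 arrays left out (highest adjusted p = 0.11) and with the fixed block (adjusted p = 0.17).

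The arrays whose omission kept the Lcp1 call were the C57BL/6 cortex array of mouse 2, the donor cortex array of graft 1, the donor medulla arrays of grafts 2 and 3, the host cortex array of graft 3, the host medulla arrays of grafts 1 and 3, the BALB/c cortex array of mouse 1 and the BALB/c medulla arrays of mice 2, 3 and 4. For Hspb8 they were the donor medulla array of graft 2, each of the 3 host cortex arrays, the host medulla array of graft 3 and the BALB/c medulla array of mouse 4. The count of 3 fell to 1 in 14 of the 28 cases and reached 15 without the host medulla array of graft 3, and 10 without the donor medulla array of graft 2 or the host cortex array of graft 3. For the other genes called in the host interaction, a difference between host and donor cells did not pass, which does not show that they changed alike. Ranbp3l, for example, was at 1.93 ± 0.78 in donor cells (adjusted p = 0.46), with 12.14, 11.67 and 11.49 in donor medulla.

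**Figure D5:**
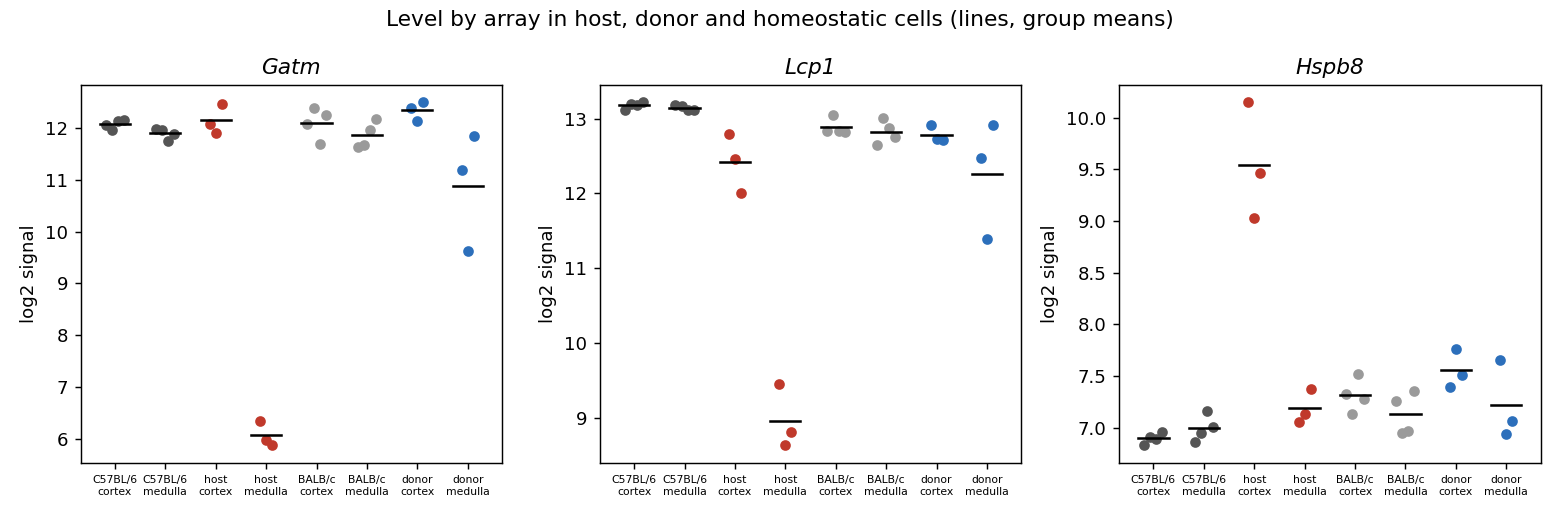
Log2 level of Gatm, Lcp1 and Hspb8 in each array of the 8 groups, with lines at the group means. Gatm lies at 5.87 to 6.35 in host medulla and at 9.63 to 11.85 in donor medulla, Lcp1 at 8.63 to 9.45 and 11.39 to 12.91, and Hspb8 at 9.03 to 10.15 in host cortex and 7.40 to 7.76 in donor cortex.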

How the data were processed

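The series holds 28 arrays of sorted mouse kidney cells, labelled as dendritic cells, in 8 groups. The deposited values are log2 signal that the authors made by RMA with oligo, as the submitters' processing notes name them (versions not given in the sources used here). RMA sets all arrays to 1 distribution, so a level is relative to the other genes of its array. The values were used as deposited.

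Of 22549 probesets, the 20646 with 1 gene symbol were used, and 551 with several and 1352 with none listed were left out. The probeset with the highest mean stood for each of 19272 genes, 810 of which had more than 1. Genes whose level exceeded the 40th percentile of the array in 3 or more arrays were tested, 14346 in all. The fit used limma 3.58.1 (R 4.3.3) on all 28 arrays with a mean for each group and 20 residual degrees of freedom, moderated statistics, 2-sided tests and Benjamini-Hochberg adjustment over the genes tested. Precision is limited by how many arrays there are.

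The labels give cortex and medulla arrays of the same mouse, which pairs them. As a check, deviations from the group means of the same graft correlated at 0.106 on average in host cells, against -0.053 between grafts, and at -0.003 in C57BL/6 mice. Mouse number as a fixed or random block was an alternative.

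On simulated data with 50 genes changed at each size among 14346, the interaction test recovered 8% at a log2 change of 1, 58% at 2, 80% at 3 and 90% at 4.

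Members and lists were chosen with earlier results of these data known. Eligible for naming were the 15 highest and 15 lowest passing interactions (no predicted genes, pseudogenes or chemoreceptors), up to 5 members of each list with the smallest unadjusted p, the 3 sort markers, and up to 6 genes in each direction where host and donor differ. Of the 42 lists, 41 had a gene tested. The other alternatives were the groups fitted alone, no filter or a strict filter, a second quantile normalization, median centring, a robust variance trend, array weights, the mean of all probesets, and each array left out in turn. Promoters came from the RefSeq table, which held 11393 of the genes tested.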

Additional observations from a re-analysis of the deposited data

Results flagged for a closer look

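The regional difference differed between host and homeostatic C57BL/6 cells for 129 genes by the test of the difference itself, and host and donor cells differed in this change for Gatm (-4.71), Lcp1 (-2.95) and Hspb8 (-2.30).

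In 12 of the 126 homeostatic groups of 4 arrays examined over 63 named genes, 1 array stood apart from the other 3 by Dixon's criterion, which chance meets in about 1 in 20 groups. The groups of 3 host arrays are too small for it. Prox1 read 9.36 in the cortex array of C57BL/6 mouse 1, against 5.82 to 6.31 in the others. Angpt2 read 9.12 in the medulla array of mouse 2, against 6.62 to 6.93. Mboat2 read 7.31 in the cortex and 6.56 in the medulla of mouse 1, against at most 6.27 and 6.14. Rassf6 read 6.17 in the medulla of mouse 2, against 5.27 to 5.34. In the medulla of mouse 4, Tap1 read 9.69 and Havcr1 6.49, against 9.08 to 9.14 and 6.09 to 6.13. The other gaps were within 0.25 on the log2 scale: Scel at 6.13 in the medulla of mouse 3, Pax2 at 7.63 in the cortex of mouse 2, Cd74 at 12.89 in the medulla of mouse 1, Ctsz at 11.16 in the cortex of mouse 4, and H2-Ab1 at 13.14 in the medulla of mouse 2.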

How the results depend on the processing

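No interaction of a gene named with its values changed sign under any alternative run, whereas the list medians near 0 of type I interferon, hypoxia and glycolysis, resident macrophage, and fibroblast and pericyte genes took both signs. The balance of higher and lower calls turned with some arrays left out, as given above. The 129 genes of the interaction became 84 with the mouse number as a fixed block, 79 with the strict filter on dim genes, 378 with array weights, and 85 to 187 with an array left out. It was 183 with the mouse as a random block and 132 with the groups fitted alone, and stayed within 1.5 times of 129 under the other settings. The 615 genes between host regions became 135 with these groups fitted alone, 64 with the fixed block and 396 with the strict filter (430 to 613 with an array left out). The 22 genes between homeostatic regions became 38 with the random block, 5 alone, 1 with the fixed block and 100 with array weights (6 to 55). Host minus C57BL/6 in the cortex, 594 genes, became 313 alone and 1402 with array weights (345 to 872), and in the medulla, 1647 genes, became 2330 with array weights (1206 to 1482 with an array left out). The 3 genes that differed between host and donor cells became 1 with the second quantile normalization and 8 with array weights (1 to 15). Without the BALB/c medulla array least like its group, an alternative chosen after seeing the data, the interaction passed for 138 genes.

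Among genes named with values, the blocks changed no host interaction call other than those given above. An interaction that missed the threshold is not shown to be absent, and few arrays limit what can be detected. The cause of these shifts was not tested. Fewer genes were tested under the strict filter, and fewer arrays were in the fit of the groups alone or with an array left out.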
